A study of Schizosaccharomyces pombe with 2 samples.

Results

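Condensin binding at 10 heat-shock and chaperone genes of fission yeast (Schizosaccharomyces pombe) was read from a chromatin immunoprecipitation (ChIP-seq) peak list made in mitotic cells. The genes were chosen by function, as cytosolic Hsp70, Hsp90, Hsp104, small heat-shock and co-chaperone genes, and with earlier results of these data known. They do not make up the whole of that class, and further genes of it are counted below. All 10 were found among 5113 annotated protein-coding genes of chromosomes I, II and III. A gene was called near Cnd2 when the summit of a peak, its highest point, lay inside the annotated gene or within 500 bp of it. The 6 genes taken as constitutive, made in cells without stress, were ssa2, sks2, hsp90, sti1, mas5 and wos2. The 4 taken as stress-induced were ssa1, hsp104, hsp16 and hsp9.

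The study held 2 libraries, an anti-HA ChIP and its input, both from strain YUK421, in which the condensin subunit Cnd2 carries an HA tag. Both came from cells grown in EMM medium with glutamate, arrested in mitosis with 5 µg/mL thiamine and fixed with 0.5% formaldehyde for 30 min at 25 °C. The labels name no heat shock or other stress. Each group has 1 library, so nothing here could be checked between replicates, and no test was made. The ChIP library kept 25933013 fragments after removal of duplicates, and the input kept 54272630. The authors' list held 664 peaks on the 3 chromosomes.

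Condensin is a ring-shaped complex that compacts chromosomes for mitosis, and Cnd2 is the kleisin subunit that closes the ring. Chaperones keep other proteins folded. Hsp70 binds unfolded stretches with the help of J-domain proteins, passes clients to Hsp90 through the adaptor Sti1, and Hsp104 pulls proteins out of aggregates. In yeasts the Hsp70 and Hsp90 families include genes read at high levels during normal growth, whereas small heat-shock protein genes are switched on by heat and other stress, largely through the transcription factor Hsf1 and, for many stress genes, Atf1. Hsp90, Sti1 and Mas5 are made without stress and raised further by heat, so the boundary between the classes is not sharp.

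A Cnd2 summit lay near 4 of the 10 genes, namely ssa2, sks2, hsp90 and hsp9 (40%, exact 95% interval 12.2 to 73.8), beside 15.1% of all protein-coding genes. Of the constitutive genes 3 of 6 were near a summit (50%, 11.8 to 88.2), and of the stress-induced genes 1 of 4 (25%, 0.631 to 80.6). The intervals of the classes overlap over most of their length. The genes are few and are not replicates of a class, and a difference between constitutive and stress-induced chaperones was not tested. The 15.1% of all protein-coding genes lies inside the intervals of the 10 genes and of both classes. These intervals are Clopper-Pearson ones and cover counting error only, not the choice of the genes. The count depended on the rule for a near peak. With the summit inside the gene it was 2 of 10 (ssa2 and hsp90), beside 6.14% of all protein-coding genes, and with peaks at or above the median fold it was 2 of 10 (ssa2 and sks2), beside 7.22%. With overlap of the peak interval it was 3 of 10 (ssa2, sks2 and hsp90), beside 12.2%. It stayed at 4 within 1000 bp (18.9% of all), with −log10 q of at least 10 (12.0%) and with the background raised to the genome's mean coverage, 429 fragments, wherever it was lower (13.4%).

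All 4 summits stood at the 3′ side of their gene, from 497 bp before the 3′ end in hsp90 to 143 bp past it in hsp9, and none was within 500 bp of the 5′ end of the same gene.

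**Figure D1:**
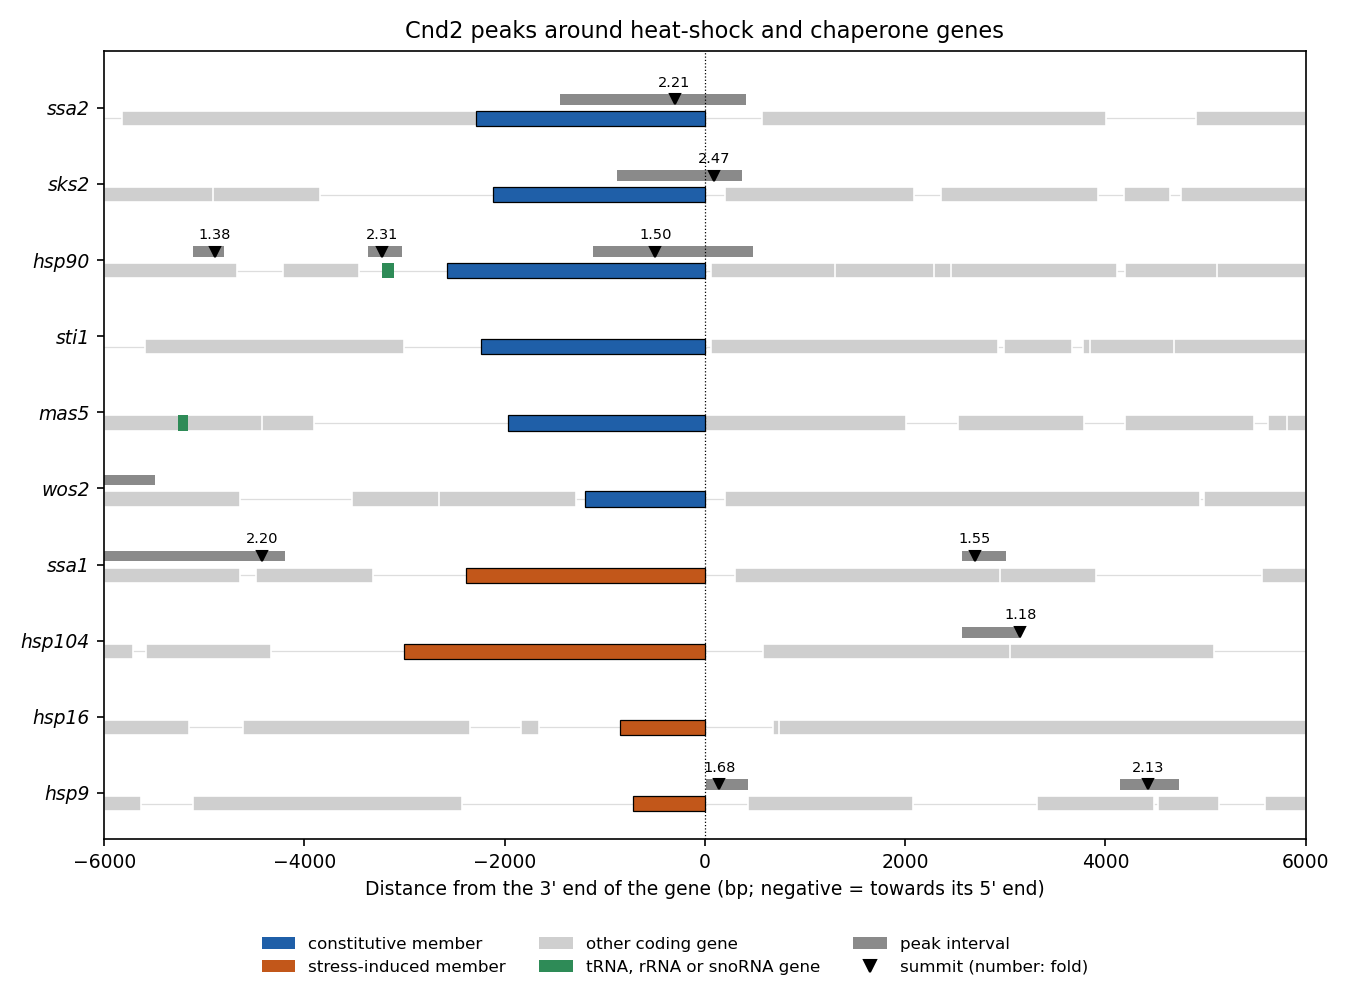
Peaks and genes within 6000 bp of the 3′ end of each member, drawn in the direction of its transcription, with constitutive genes above stress-induced ones. Bars are annotated protein-coding, tRNA, rRNA and small nucleolar RNA genes. Other non-coding RNA genes, such as SPNCRNA.5021 at the sks2 summit, are not drawn. Bands are peak intervals, triangles are summits and the number is the fold enrichment over the local background. Summits stand at the 3′ side of ssa2, sks2, hsp90 and hsp9, and none lies inside or within 500 bp of the other 6. The summits nearest to wos2 and mas5 fall beyond the left edge, and those nearest to sti1 and hsp16 beyond the right edge.

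The constitutive Hsp70 gene ssa2 (SPCC1739.13, chromosome III) carried the tallest of the 4 peaks (III, 2057879 to 2059745, ASM294v2). Its summit held 2127 ChIP fragments (exact Poisson 95% interval 2038 to 2219, counting error only) over a background of 962 scaled fragments, the caller's local estimate from the input. The ratio of these, the fold enrichment, was 2.21. By height this peak ranked 46 of 664, by fold 222. The summit lay inside the coding sequence, 304 bp before the 3′ end of the gene and 159 bp before the end of the coding sequence. The peak interval covered 63.5% of the gene, all of it towards the 3′ end, and stopped short of npp106. This nucleoporin gene has the same direction, across a gap of 566 bp from the 3′ end of ssa2. The background at this summit was itself high, at rank 19 of 664, beside a median of 409 over all peaks. The 181 peaks of chromosome III had a median background of 560, and the peaks of chromosomes I and II had medians of 366 and 378.

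Next in height was sks2 (SPBC1709.05, chromosome II), which encodes the Hsp70 that works on nascent chains at the ribosome. Its peak (II, 1107635 to 1108879) held 972 fragments at the summit (912 to 1035) over a background of 392, and its 2.47-fold enrichment was the highest of the 4, at rank 166 of 664. The summit was 94 bp past the 3′ end of sks2, between it and dus2, a tRNA dihydrouridine synthase gene that starts 196 bp downstream. It also lay inside SPNCRNA.5021, a non-coding RNA annotated on the opposite strand. The peak reached back over 41.4% of sks2 and forward over 172 bp of dus2.

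The Hsp90 gene (SPAC926.04C, chromosome I) had a lower and broader peak (I, 3888077 to 3889677). The summit held 891 fragments (833 to 951) over 596, a fold of 1.50 that ranked 425 of 664. It was in the coding sequence, 497 bp before the 3′ end and 281 bp before the end of the coding sequence, and so only just within reach of that end. The interval covered 43.4% of hsp90 and 421 bp of the convergent gene rlc1, the myosin light chain gene whose 3′ end is 60 bp away. A second, narrow peak of 338 bp (I, 3891586 to 3891923) had its summit 645 bp upstream of hsp90, outside the 500 bp limit. That summit, with 915 fragments and 2.31-fold, lay on the 5S ribosomal RNA gene SPRRNA.18. None of the 4 summits counted as near was within 500 bp of a tRNA or 5S rRNA gene. The share of all 664 peaks near such a gene is not given here, so this is no trait of the chaperone peaks.

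Among the stress-induced genes hsp9 was near a summit. It encodes a small heat-shock protein (SPAP8A3.04C, chromosome I) related to Hsp12 of budding yeast. The peak (I, 5319524 to 5319951) was the smallest of the 4, 428 bp wide, with 537 fragments at the summit (493 to 584) over a background of 319. Its fold of 1.68 ranked 343 of 664. The summit stood 143 bp past the 3′ end of hsp9 and 286 bp past that of the convergent zinc transporter gene zip3, in the gap between these genes. The interval ended 6 bp short of hsp9 and covered 5 bp of zip3. The pileups at the constitutive genes, 2127, 972 and 891, were above the 537 at hsp9, and so were their backgrounds, 962, 392 and 596 against 319. By the deposited fold the classes were not ordered, since hsp90 (1.50) stood below hsp9 (1.68). With a background of at least 429 this order turned. The fold was then 1.25 at hsp9, 1.50 at hsp90, 2.21 at ssa2 and 2.26 at sks2. The stress-induced class rests on this 1 peak.

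**Figure D2:**
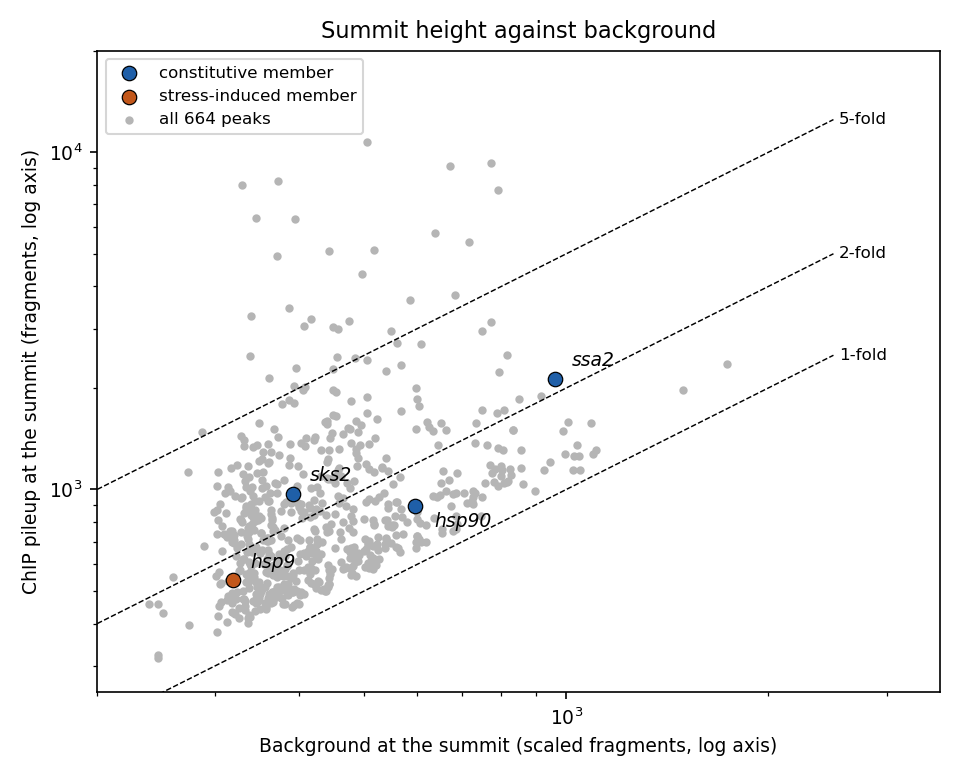
ChIP pileup at each summit against its background, both on log axes, for 664 peaks less 5 that fall outside the plotted range. Coloured points are the peaks near chaperone genes and dashed lines mark 1-fold, 2-fold and 5-fold enrichment. Pileup was 2127 at ssa2, 972 at sks2, 891 at hsp90 and 537 at hsp9, with ssa2 and sks2 above the 2-fold line and hsp90 and hsp9 below it.

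The 4 peaks stood within the common range of the list in enrichment and height, except for the height of ssa2 and hsp9. Their median fold was 1.94, beside 1.72 for all 664 peaks (quartiles 1.36 and 2.47), and their median pileup was 932 fragments, beside 786 (quartiles 586 and 1130). Their widths of 1867 bp at ssa2, 1601 bp at hsp90, 1245 bp at sks2 and 428 bp at hsp9 stood beside a median of 523 bp, so that the peaks of the constitutive genes were wider than 902 bp, the upper quartile of the list. Significance at the summit, as −log10 of the q-value by the authors' caller, was 226.9 at ssa2, 131.4 at sks2, 27.5 at hsp90 and 26.7 at hsp9, beside a median of 39.1.

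The 3′ position was common in the list as a whole. All 4 member summits lay within 500 bp of the 3′ end of the member, beside 72.7% of the 774 protein-coding genes near a summit. For the 5′ end of the gene itself the count was 0 of 4, beside 15.5%. The neighbour at the 3′ end was convergent for hsp90 and hsp9 and tandem for ssa2 and sks2, so peaks were found in both arrangements. Convergent neighbours were also present at sti1, 57 bp away, and at mas5, whose 3′ end overlaps alg12 by 32 bp, and neither of these had a summit near it.

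No summit was near the constitutive co-chaperone genes sti1, mas5 and wos2. At sti1 (SPCC645.14C, chromosome III), which encodes the adaptor between Hsp70 and Hsp90, the nearest summit was 8135 bp past the 3′ end, on the tRNA gene SPCTRNASER.10 (1406 fragments, 3.33-fold). At mas5 (SPBC1734.11, chromosome II), the J-domain partner of Hsp70, it was 12263 bp upstream, inside anp1 and spf31 (644 fragments, 1.78-fold), the longest distance among the 10 genes. At wos2 (SPAC9E9.13, chromosome I), the p23-type co-chaperone of Hsp90, it was 5074 bp upstream, inside mfs1 (602 fragments, 1.78-fold).

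No summit was near the stress-induced genes ssa1, hsp104 and hsp16 either. The closest of these was at ssa1 (SPAC13G7.02C, chromosome I), an Hsp70 gene like ssa2. It was 2037 bp upstream, in upf3, 67 bp before its 3′ end (855 fragments, 2.20-fold), and another summit 2693 bp past the 3′ end of ssa1 lay in erg7 (649 fragments, 1.55-fold). At hsp104 (SPBC16D10.08C, chromosome II), the disaggregase gene, the nearest was 3150 bp past the 3′ end in zrt1. This was a weak peak, with 523 fragments and 1.18-fold. At hsp16 (SPBC3E7.02C, chromosome II), the main small heat-shock gene, it was 6786 bp past the 3′ end, inside fab1 and prp17 (476 fragments, 1.30-fold). A peak absent from this list means that no enrichment passed the caller's threshold of q 0.05 there, since coverage at these genes was not analysed here.

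Distances to the nearest summit did not order the classes as the counts at 500 bp did. The median was 2.58 kb for the constitutive genes (range 0 to 12263 bp), 2.59 kb for the stress-induced ones (143 to 6786 bp) and 6.52 kb for all protein-coding genes. The constitutive median stands in a gap, between sks2 at 94 bp and wos2 at 5074 bp. Within 5000 bp of a summit were 3 of 6 constitutive genes, 3 of 4 stress-induced genes and 42.8% of all protein-coding genes. The order of the classes therefore turned between 500 and 5000 bp. With all protein-coding genes split by length into 3 groups of about equal size, 13.0% of the shortest, 15.2% of the middle and 17.2% of the longest group were near one. The median length was 2177 bp for the constitutive genes, 1620 bp for the stress-induced ones and 1773 bp for all.

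**Figure D3:**
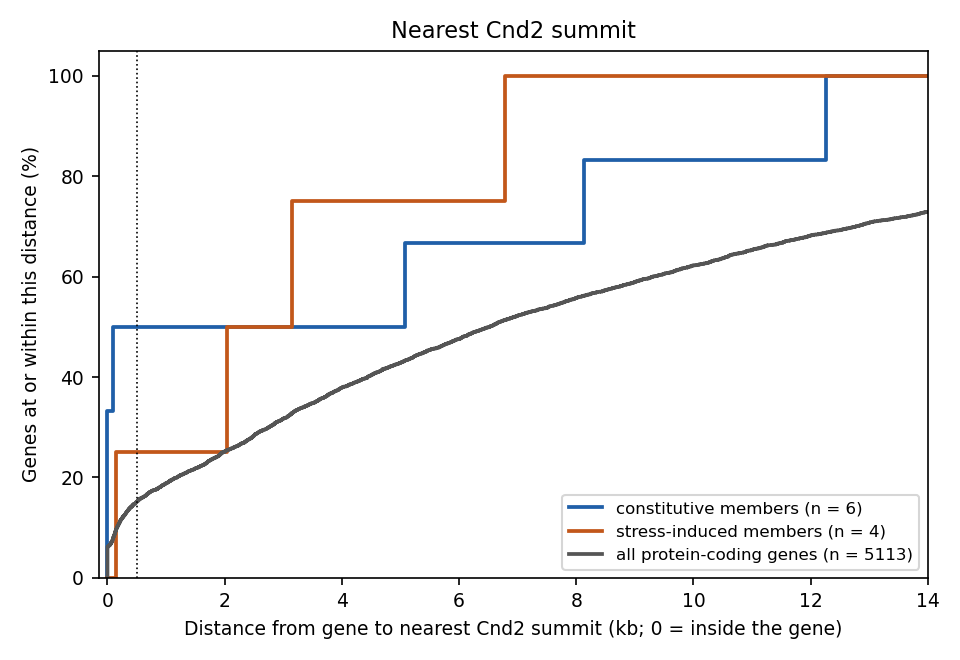
Percentage of genes whose nearest Cnd2 summit lies at or within a given distance in kb, for 6 constitutive members, 4 stress-induced members and all 5113 protein-coding genes, with the 500 bp limit dotted. At 500 bp the curves stand at 50%, 25% and 15.1%, and at 5000 bp at 50%, 75% and 42.8%.

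The Hsp70 genes ssa2 and ssa1 are close relatives, and ssa2 had a peak where ssa1 had none. Their coding sequences were identical at 82.9% of 1935 aligned bases, and each was 67.9% identical to sks2. Fragments from near-identical copies can be placed wrongly, so the genes were searched for stretches of 50 bases that occur elsewhere on the chromosomes. None was found in the other 8 genes. Counted by starting position and not by gene length, 7 of 2240 such stretches in ssa2 (0.312%) and 7 of 2336 in ssa1 (0.300%) occurred elsewhere. They come from 1 run of 56 bases shared by both genes, shown because it is the longest stretch the genes have in common (RefSeq, ASM294v3; III:2058566-2058621, plus strand, in ssa2, and I:2296375-2296430, minus strand, in ssa1).
ssa2 and ssa1: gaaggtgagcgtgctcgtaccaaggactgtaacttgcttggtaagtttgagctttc
The run ends 710 bp before the 3′ end of ssa2 and so lies within the last 1453 bp of the gene, which the peak covers, while the summit is 304 bp before that end. Its part in the peak was not tested.

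The promoters were searched for the heat-shock element, the repeat of GAA and TTC blocks to which Hsf1 binds. Over the 300 bases before the annotated start, on both strands, a pair of blocks (GAANNTTC or TTCNNGAA) occurred at 7 of 10 genes and at 19.5% of 5112 promoters. It was present at 5 of 6 constitutive genes (ssa2, hsp90, sti1, mas5 and wos2) and 2 of 4 stress-induced ones (ssa1 and hsp16). A run of 3 blocks (GAANNTTCNNGAA or TTCNNGAANNTTC), which contains 2 overlapping pairs, occurred at ssa2 and ssa1 and at 0.489% of promoters. The core TGACGT (or ACGTCA), the site read by Atf1, occurred at ssa2 and wos2 and at 6.03% of promoters. A match describes the letters only.

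At ssa2, hsp90 and ssa1 the heat-shock element followed 3 or 4 bases after another stretch, AGGGTTAGGGTT, the longest that these promoters have in common. They are shown side by side, with this stretch and the pairs of GAA and TTC blocks, bases between blocks included, in capitals, for ssa2 (RefSeq, ASM294v3; III:2056968-2056997, plus strand), hsp90 (I:3891182-3891211, minus strand) and ssa1 (I:2298008-2298037, minus strand). The first printed base lies 75, 72 and 73 bases before the start of ssa2, hsp90 and ssa1. The bases shown for ssa2 lie inside the annotated upstream gene ppe1, which overlaps ssa2 by 27 bp in the same direction.
ssa2: AGGGTTAGGGTTttggGAAACTTCGAGAAc
hsp90: AGGGTTAGGGTTttgGAATGTTCgagttgc
ssa1: AGGGTTAGGGTTggtGAAGGTTCGAGAAtg
The stretch was chosen for study after these sequences were seen. On either strand (AGGGTTAGGGTT or AACCCTAACCCT) it occurred in 20 of 5112 promoters (0.391%), and 9 of the 20 belong to core histone genes. Apart from the genes it was drawn from, 7 of 17 were near a Cnd2 summit, beside 15.1% of all protein-coding genes, namely the histone genes hhf1, hta1 and htb1, and tif51, tbp1, bdf2 and SPAC27E2.11C. Divergent neighbours can share a stretch, and the 20 promoters held 16 distinct ones, so these genes are not independent of each other. Among the chaperones themselves ssa2 and hsp90 have the stretch, the element and a peak, and ssa1 has the stretch and the element but no peak. Whether either sequence bears on the peaks was not tested.

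The summits at ssa2 and hsp90 were far from these elements, at 1984 and 2084 bp downstream of the start. Of the genes without a peak, mas5, wos2 and ssa1 had a pair of blocks or more, and hsp104 had neither element. The other genes with a peak, sks2 and hsp9, had neither element in the 300 bases searched, whereas sti1 and hsp16 had a pair of blocks and no peak. The last 120 bases before the start of these 4 genes are shown to set the cases side by side, with each pair of blocks and the bases between them in capitals (RefSeq, ASM294v3; sks2 at II:1106276-1106395, plus strand; hsp9 at I:5320677-5320796, sti1 at III:1263576-1263695 and hsp16 at II:2660993-2661112, all minus strand).
sks2: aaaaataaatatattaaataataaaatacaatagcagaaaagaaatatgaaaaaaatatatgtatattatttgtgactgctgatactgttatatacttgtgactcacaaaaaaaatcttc
hsp9: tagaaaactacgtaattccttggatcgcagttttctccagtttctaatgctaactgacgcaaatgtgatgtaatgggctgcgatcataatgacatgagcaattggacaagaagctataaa
sti1: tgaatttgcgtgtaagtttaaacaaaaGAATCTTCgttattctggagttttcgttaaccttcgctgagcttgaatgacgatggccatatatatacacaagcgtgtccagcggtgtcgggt
hsp16: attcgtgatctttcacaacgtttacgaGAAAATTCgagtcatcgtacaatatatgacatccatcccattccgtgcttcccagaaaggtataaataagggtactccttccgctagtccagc
In sti1 and hsp16 the pair begins 93 bases before the start. Over all promoters with a pair, 13.2% of 999 genes were near a summit, and with 3 blocks 4 of 25 were (16%), ssa2 among them. Both are close to the 15.1% of all protein-coding genes. With the Atf1 core 59 of 308 genes were near a summit (19.2%). A difference between these shares was not tested.

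Of 28 further chaperone genes found, which serve the endoplasmic reticulum, mitochondria, the chaperonin ring and the cytosol, 2 were near a Cnd2 summit (7.14%, exact 95% interval 0.877 to 23.5), beside 15.1% of all protein-coding genes, a share that lies inside this interval. One was pss1, the Hsp110 exchange factor of cytosolic Hsp70, with 663 fragments and 1.88-fold, 54 bp past its 3′ end and 57 bp past that of the convergent gene cdc42. The other was bip1, the Hsp70 of the endoplasmic reticulum, with 695 fragments and 1.27-fold inside the coding sequence, 803 bp before its 3′ end. None of the 8 chaperonin genes cct1 to cct8 was near a summit. The mitochondrial Hsp60 gene (mcp60) just missed the limit, with a summit 522 bp past its 3′ end inside taf9 (1364 fragments, 3.79-fold). The interval of this peak covered 54.6% of mcp60 and 95 bp of the small nucleolar RNA gene sno52, which lies 304 bp from the summit. With overlap of the peak interval the count was 3 of 28 (pss1, bip1 and mcp60), beside 12.2% of all protein-coding genes.

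Of 15 stress-response genes that are not chaperones, 3 were near a summit (20.0%, 4.33 to 48.1). They were trx1, a cytosolic thioredoxin gene (860 fragments, 2.88-fold, 142 bp past its 3′ end), atf1, the stress transcription factor (827 fragments, 1.99-fold, 130 bp past), and gpd1, which serves glycerol synthesis under osmotic stress (664 fragments, 1.73-fold, 359 bp past). The catalase gene ctt1 and the trehalose genes tps1 and ntp1 had none near them. All 3 peaks were again past the 3′ end. The interval included the 15.1% of all protein-coding genes.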

How the data were processed

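The deposited peaks of 1 Cnd2 ChIP library, called against 1 input, were used. BWA 0.7.12, MACS2 2.1.0 and build ASM294v2 are named in the submitters' processing notes. Per the file headers, MACS 2.1.0.20150731 took paired-end fragments, kept 1 per position, scaled the larger library down and applied a q-value cutoff of 0.05. Dropping duplicates removed 34.7% of ChIP and 10.4% of input fragments and can lower tall peaks. Pileup, per the file headers, is a signal: how many fragments cover the summit. The deposited fold enrichment is the ratio of pileup to local background, and significance is given by the authors' caller as −log10 of p-value and q-value. These values were compared only within the list. Positions are in bp.

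The header's genome size of 1.87e+09 is far above the 12.6 Mb of the chromosomes, so the lowest allowed background was 2.88 scaled fragments and not 429. Background was recovered as (pileup + 1) divided by fold, minus 1. Poisson p-values computed from it matched the deposited −log10 values to within 0.0034 at 577 peaks.

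Gene positions were taken from RefSeq (ASM294v3, a later release). As a check of the builds, 117 of 171 tRNA genes had a summit within 100 bp, and 1 to 9 did after shifts of the annotation by 500 to 5000 bp. Sequences were read from ASM294v3 by annotated gene and never at peak coordinates. Of 30 further chaperones listed, 28 were found (not lhs1 or caj1), as were all 15 stress genes. The 4 peaks on a sequence named MTR were left out. All 10 members were named and, in the other lists, each gene near a summit. Further genes named there, and the AGGGTTAGGGTT stretch, were chosen after their values were seen. The members and lists were chosen with earlier results of these data known. Alternatives were other distances, interval overlap of at least 1 bp, stricter peaks, a background of at least 429 and other classes. Distances were tested on simulated data. Software was Python 3.11.15 with scipy 1.17.1, pandas 2.3.3, numpy 2.4.6 and, for figures, matplotlib 3.10.9.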

Additional observations from a re-analysis of the deposited data

How the results depend on the processing

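Of 48 values under alternative settings, 26 stayed within 1.5 times the reported count or did not move, and 22 moved. With a summit inside the gene required, 2 members (ssa2 and hsp90), 0 stress-induced members, 1 further chaperone and 0 other stress genes remained near one, beside 6.14% of all protein-coding genes, and the median fold of member peaks was 1.85 and the median pileup 1509. With peaks at or above the median fold, 2 members (ssa2 and sks2), 0 stress-induced members and 1 further chaperone were near one, beside 7.22%. With overlap of the peak interval, the stress-induced count was 0, since the hsp9 peak ends before the gene, beside 12.2%. With −log10 q of at least 10 the further chaperones numbered 1, beside 12.0%. Within 1000 bp the share of all genes was 18.9%. With the background held at 429 all 4 members kept a near peak, beside 13.4%, and their median fold was 1.85. The fold was then 1.25 at hsp9 and 2.26 at sks2, so hsp9 stood below hsp90, which stayed at 1.50. With hsp90, sti1 and mas5 counted as stress-induced, 2 stress-induced members were near a summit, of 7, and 2 constitutive members of 3. Within 250 bp of the 3′ end were 2 of the 4 summits. No paired analysis was possible because there is 1 library in each group.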
